A study of Mus musculus with 16 samples.

Results

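The samples described here are 2 groups of inflamed mouse colon set against each other, one given the oral agent that the deposited labels abbreviate CEC and the other given Escherichia coli Nissle, a probiotic strain. They made up 8 of the 16 samples of the series, 4 per group, chosen by their labels and read for every gene of an inflammation panel. RNA came from the colonic mucosa of mice. Both groups had received dinitrobenzene sulfonic acid (DNBS), a hapten, into the rectum, and differ in the labels by oral CEC (samples 1, 2, 6 and 8) or oral Nissle (samples 1, 4, 5 and 7). The other groups serve here as a scale only: 4 DNBS samples with oral saline buffer (PBS) and 4 healthy samples with PBS by both routes. Mouse strain, age, dose and timing are not given in the sources used here, and the full name behind CEC is not either. The design text has RNA of the mice combined in equal parts, while the samples are numbered singly. Whether each stands for 1 animal or for several is not known, so p-values measure only the spread between these samples.

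DNBS binds to proteins of the gut wall and provokes an acute colitis. Damaged epithelium and resident macrophages release interleukin 1 and chemokines of the CXC type, the endothelium displays selectins, and neutrophils leave the blood and fill the mucosa. Neutrophils carry calprotectin, the S100a8 and S100a9 dimer, which is used in the clinic as a measure of gut inflammation. The comparison of the 2 oral treatments asks whether mucosa under the same hapten differed between them.

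Gene expression was read by quantitative PCR on OpenArray plates, with a TaqMan panel of mouse inflammation genes. The cycle threshold (Ct) is the cycle at which an assay becomes visible, so a lower Ct is more RNA. A gene's level is given as the mean Ct of 13 reference genes minus its own Ct, a log2 scale. A Ct above 28 counts as not detected. Levels are compared between samples for 1 gene and never between genes, since assays differ in efficiency. CEC values are listed in the sample order 1, 2, 6, 8 and Nissle values in the order 1, 4, 5, 7.

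Detection was close in the 2 groups. Of 648 assays, the CEC samples detected 552 ± 4.8 and the Nissle samples 558.25 ± 6.2 (mean ± SD, 4 per group; 2-sided exact permutation p = 0.229). The number of template molecules behind a Ct is unknown. The mean reference Ct was 19.3 ± 0.30 in CEC and 19.07 ± 0.47 in Nissle samples, a difference of 0.234 cycles (exact permutation p = 0.429). It moved with 1 reference gene, Ywhaz, whose Ct was 2.75 cycles higher with CEC and whose SD within groups was 3.47 cycles. It read 25.3, 21.6, 25.3 and 18.6 in the CEC samples and 18.8, 17.9, 24.8 and 18.4 in the Nissle samples. Without Ywhaz and Rplp2, the other scattered reference gene, the difference of every gene read in all 8 samples moves by −0.25 on the log2 scale. For the 43 tested genes with a missing sample the shift depends on which sample is missing. The median difference over all tested genes was 0.15 (CEC minus Nissle) with the full reference, −0.11 without those 2 genes and −0.20 with Gapdh alone, so differences are best read against that median. Nissle sample 1 held 61 values that equalled the mean of the other 3 Nissle samples and were read as filled-in gaps, against 2 to 12 in each of the other 7 samples.

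No gene of the panel separated the groups past the threshold, and among the genes detected well enough to be tested the widest differences pointed to less RNA with CEC. All 17 tested genes that differed by more than 2 log2 units (4-fold) were lower with CEC, among them the matrix cytokine Spp1, the interleukins Il1a and Il1b, the neutrophil genes S100a8, S100a9 and Il8rb, and the chemokines Cxcl2, Cxcl3, Cxcl10, Ccl3 and Ccl4. Among genes too rarely detected to be tested, Epo lay the other way, read in all CEC and in no Nissle samples. The 4 tested genes with an unadjusted p under 0.05 that were higher with CEC, Cd180, Pla2g2d, H2-Q10 and Tnfrsf18, differed by 0.77 to 1.42, where Pla2g2d came to 0.25 once its undetected CEC sample was counted at the limit. Most other genes lay slightly to the other side, with 297 of 471 (63.1%) higher with CEC on the full reference and 168 without Ywhaz and Rplp2.

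Of 584 genes on the panel, 471 were tested, each of them seen in 3 or more samples per group. A further 50 were detected in none of the 8 samples, 47 in too few, and 16 were control genes or an assay of several transcripts. None passed in limma at an adjusted p under 0.05 (0% of those tested; lowest adjusted p = 0.565, for the eosinophil chemokine Ccl24). Without adjustment 21 genes had a p under 0.05, where that threshold alone gives 23.55 of 471. Of these, 17 (3.61%) were lower with CEC and 4 (0.849%) higher. The split moved with the scaling, to 25 and 2 without Ywhaz and Rplp2, 24 and 2 with the 3 most stable reference genes, 32 and 1 with Gapdh alone, and 19 and 8 with quantile normalization. It also moved with single samples: without Nissle sample 5 it was 7 lower and 17 higher, and without CEC sample 8 it was 10 and 9. The groups did not overlap in 11 genes, with CEC below Nissle in 6 (1.27%) and above it in 5 (1.06%), counting detected samples only.

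**Figure D1:**
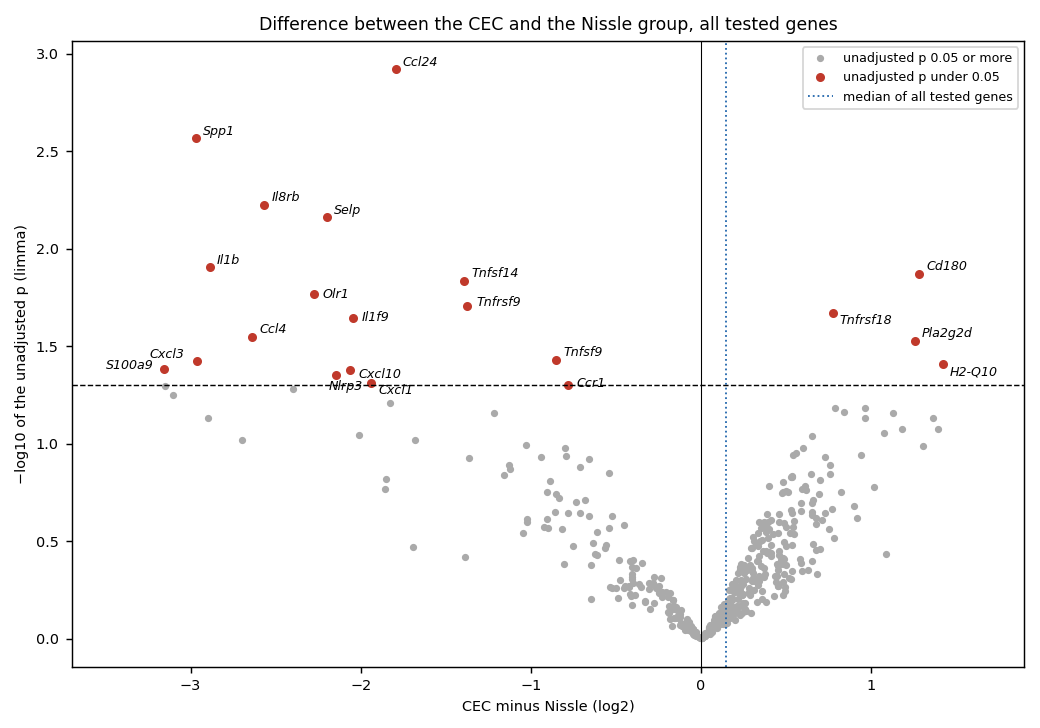
Difference between the groups (x axis, log2 level with CEC minus log2 level with Nissle) against the −log10 of the unadjusted limma p (y axis) for the 471 tested genes. The dashed line marks the unadjusted threshold of 0.05 and the dotted line the median of all tested genes, at 0.15; 17 named genes lie above the dashed line on the left and 4 on the right.

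The precision of these data bounds what could be seen. The SE of a difference had a median of 0.48 and ranged from 0.27 to 1.72 over the tested genes, so the 95% confidence interval of a typical gene reached 1.01 log2 units to either side. For 114 genes (24.2%) the whole interval lay within 1 log2 unit of no difference. For the rest a doubling in 1 direction or the other was compatible with the samples. Over the 428 tested genes detected in all 8 samples, the SD within a group had a median of 0.69 with CEC and 0.66 with Nissle, and was larger with CEC in 216 genes. Over the 375 of them without a filled-in value the medians were 0.67 and 0.72, and the SD was larger with CEC in 177.

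Neutrophil chemokines were lower on average with CEC throughout. All 5 tested members were lower, the median being −1.94 against 0.15 over all genes, and 2 had an unadjusted p under 0.05. The median ranged from −2.53 without Nissle sample 7 to −1.13 without Nissle sample 1, and from −2.29 to −1.94 over the other scalings. Cxcl3, a ligand of the neutrophil receptor CXCR2, stood at −2.54, −3.77, −6.21 and −7.49 with CEC. With Nissle it stood at −0.82, −2.68, −0.52 and −4.12. CEC samples 6 and 8 lay below all Nissle samples and CEC samples 1 and 2 within their range. The difference was −2.96 ± 1.28 (± SE, n = 4 per group; limma adjusted p = 0.961), or 7.80-fold more with Nissle.

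Cxcl2, a close relative made by macrophages and epithelium, read −1.54, −4.19, −7.04 and −7.06 with CEC against −0.36, −3.88, 0.83 and −3.80 with Nissle. Here the Nissle samples themselves fell into a high pair, 1 and 5, and a low pair, 4 and 7. The difference was −3.15 ± 1.48 (limma adjusted p = 0.961), and −2.28 without Nissle sample 5. Cxcl1, the third of these ligands, read −2.93, −2.99, −5.52 and −6.32 against −0.07, −2.77, −2.89 and −4.28. Its difference of −1.94 ± 0.91 was −1.13 without Nissle sample 1, the highest sample, and a second Cxcl1 assay gave −1.93. Cxcl5, which epithelial cells secrete, and the platelet chemokine Ppbp were at −1.12 ± 0.71 and −1.02 ± 0.86. Nissle sample 1 held a filled-in Ppbp value.

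The receptor for these chemokines showed one of the clearest separations. Il8rb, now named Cxcr2, read −5.02, −5.29, −6.38 and −7.63 with CEC and −2.86, −3.90, −3.16 and −4.13 with Nissle. Every CEC sample lay below every Nissle sample, and healthy samples in which it was detected lay between −7.74 and −7.27. The difference was −2.57 ± 0.80 (limma adjusted p = 0.814), or 5.93-fold more with Nissle, and stayed between −2.92 and −2.05 with any 1 of the 8 samples left out.

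The calprotectin genes had equally wide differences but a different shape. S100a8 read 2.01 and 2.33 in CEC samples 1 and 2, and −3.42 and −4.84 in CEC samples 6 and 8. The Nissle samples read 2.42, 2.23, 2.62 and 1.23. CEC samples 1 and 2 thus lay inside the Nissle range, while samples 6 and 8 lay at the level of healthy mucosa, −6.95 to −4.07, or just above it. S100a9 also split between CEC samples 1 and 2 and samples 6 and 8, at 1.61, 0.47, −3.03 and −5.36 against 2.24, 0.61, 2.52 and 0.96. There CEC sample 2 lay just below the lowest Nissle sample. The differences were −3.10 ± 1.51 for S100a8 and −3.16 ± 1.43 for S100a9 (limma adjusted p = 0.961 for both), with group SDs of 3.69 against 0.62 and of 3.20 against 0.94. Without CEC sample 8 they were −1.82 and −1.90. The 2 S100a8 assays gave −3.19 and −3.01.

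Other granule and surface genes of neutrophils varied in the same samples. Chi3l3, now Chil3, a chitinase-like lectin, read 0.27, −4.49 and −5.86 in CEC samples 1, 2 and 6 and was not detected in sample 8, which the fit left out, against 0.71, −1.47, −2.26 and −3.02 with Nissle. Its difference of −1.85 ± 1.23 ranged from −3.67 without CEC sample 1 to −0.60 without CEC sample 6, and was −3.26 with sample 8 counted at the limit. Ltf, the iron-binding lactoferrin of the granules, read −3.31, −1.45, −5.98 and −6.40 against −3.58, −3.09, −4.05 and −3.18, a difference of −0.81 ± 0.96 in which Nissle sample 1 was a filled-in value. It was −0.10 without CEC sample 8 and −1.75 without CEC sample 2. Trem1, a receptor that amplifies myeloid activation, was at −2.40 ± 1.13 and the membrane protease Mmp25 at −0.52 ± 0.85, with Mmp25 undetected in CEC sample 8 and at −1.13 when any Ct under 40 was accepted. In all, 7 of 8 tested neutrophil receptor and granule genes were lower, and their median of −1.49 went from −2.26 without CEC sample 1 to −0.76 without CEC sample 6.

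**Figure D2:**
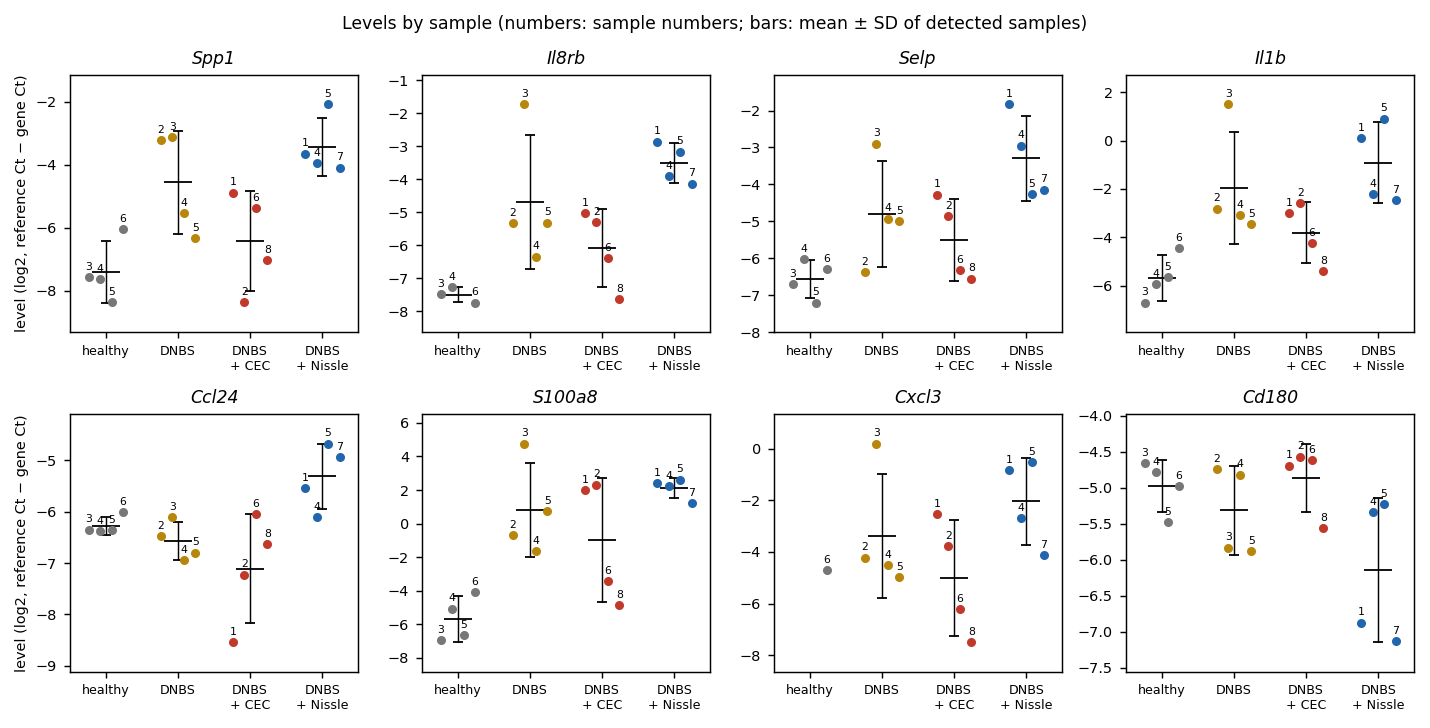
Level of 8 genes (y axis, log2, mean reference Ct minus gene Ct) in the 4 groups, 1 point per sample with its sample number, black bars for the mean ± SD of the samples in which the gene was detected. CEC lies wholly below Nissle in Spp1, Il8rb, Selp and Il1b, whereas in S100a8 CEC samples 1 and 2, at 2.01 and 2.33, lie among the Nissle samples and only samples 6 and 8 lie below them.

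The neutrophil markers are genes of that same list and so give no second reading. S100a8, S100a9 and Ltf, the 3 markers detected in all 16 samples, had a mean level of 0.11, 0.45, −4.14 and −5.53 with CEC and 0.36, −0.09, 0.36 and −0.33 with Nissle, against −3.04 to 2.56 in the DNBS samples and −6.69 to −5.58 in healthy ones. CEC samples 1 and 2 were as high as the Nissle samples, and samples 6 and 8 were lower. All 5 tested neutrophil markers, these 3 with Il8rb and Mmp25, were lower on average with CEC (median −2.57). Whole mucosa was measured, so fewer neutrophils and less RNA per neutrophil cannot be told apart. The part of neutrophil number in the other differences was not tested. Across the 428 genes the first principal component of the 8 samples held 29.9% of the variance, with CEC at 1.34, 6.55, −15.5 and −14.9 and Nissle at 11.8, 12.2, 0.46 and −1.94. The largest loadings on it were those of S100a8, S100a9, Cxcl3, Cxcl2 and Cxcl1.

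**Figure D3:**
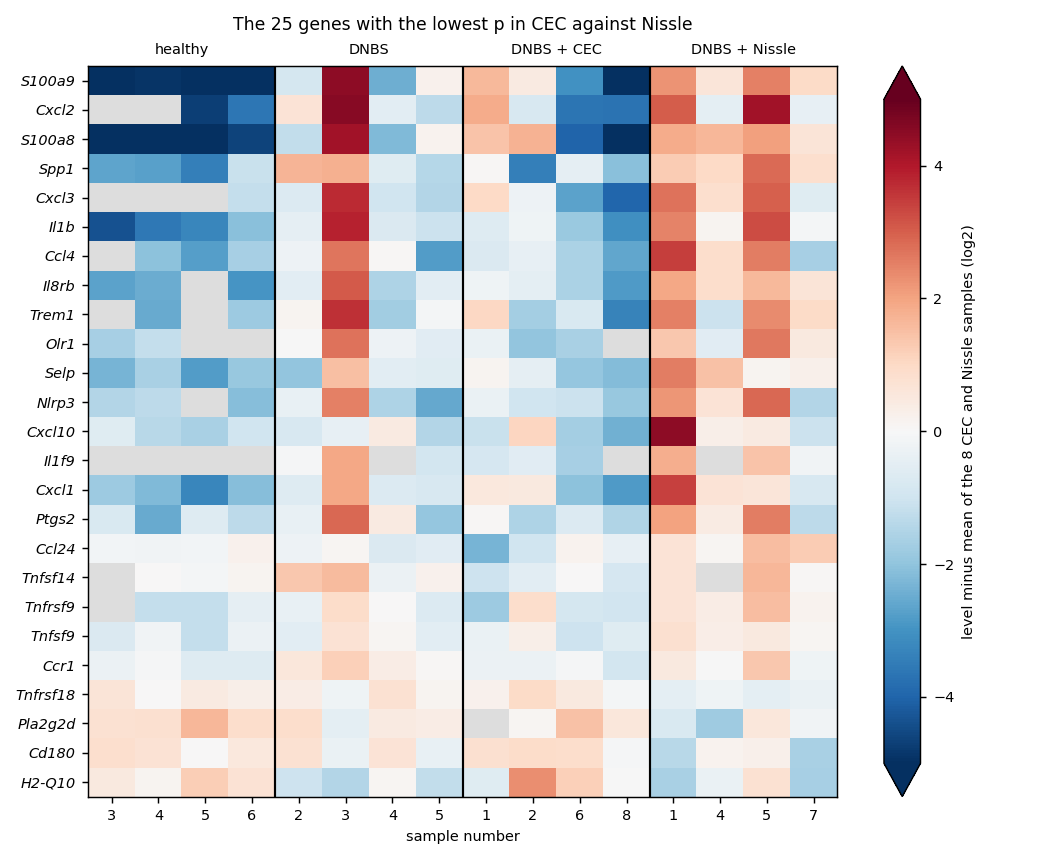
Level of the 25 genes with the lowest p (rows) in each of the 16 samples (columns), as the log2 difference from the mean of the 8 CEC and Nissle samples, with grey where a gene was not detected and colours ending at 5 log2 units. The calprotectin rows are red in CEC samples 1 and 2, as in the Nissle samples, and blue in CEC samples 6 and 8, while the Il1b row is red in Nissle samples 1 and 5 and pale in 4 and 7.

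Interleukin 1 is the early alarm cytokine of colitis, and its genes differed by member. Il1b read −2.99, −2.59, −4.22 and −5.41 with CEC and 0.10, −2.21, 0.90 and −2.46 with Nissle. No values overlapped, although Nissle samples 4 and 7 came close to CEC sample 2. The difference was −2.89 ± 1.03 (limma adjusted p = 0.961), or 7.40-fold more with Nissle, and the 2 Il1b assays gave −2.76 and −3.01. Il1a, the form released by dying cells, read −5.31, −5.56 and −8.44 in CEC samples 1, 2 and 8 and −1.94, −4.33, −1.06 and −6.82 with Nissle. It was not detected in CEC sample 6, which the fit left out, and the difference was −2.90 ± 1.49. Il1f9, an epithelial member of the family, was read in CEC samples 1, 2 and 6 at −7.06, −6.78 and −7.85 and in Nissle samples 1, 5 and 7 at −4.38, −4.80 and −6.38. Its difference of −2.05 ± 0.76 thus rests on 3 samples per group. With the undetected CEC sample 8 and Nissle sample 4 counted at the limit it was −1.50, and that Nissle sample then lay below CEC samples 1, 2 and 6.

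The inflammasome sensor Nlrp3, needed to cut pro-interleukin 1 beta, was at −5.92, −6.62, −6.68 and −7.51 against −3.42, −4.94, −2.72 and −7.07. Nissle sample 7 was as low as the CEC samples, and the difference of −2.15 ± 0.98 was −2.99 without it. In the soluble antagonist Il1rn the samples interleaved, at −0.46, −1.16, −0.77 and −1.90 against −0.76, −1.41, −0.11 and −1.36, with an interval of the difference from −0.97 to 0.65. The receptor Il1rl1, which binds interleukin 33, was at −1.16 ± 0.75, and at −0.27 without CEC sample 1, its lowest sample. Nissle sample 1 held a filled-in Il1rl1 value. Of 7 tested family members 5 were lower with CEC (median −0.45, mean −1.18), as were 5 of 5 receptors with a median of −0.12 that turned to 0.02 without Nissle sample 1.

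Spp1, osteopontin, had the lowest p after Ccl24. It read −4.89, −8.36, −5.39 and −7.02 with CEC and −3.65, −3.95, −2.08 and −4.10 with Nissle, without overlap. CEC sample 1 came nearest to the Nissle samples and CEC sample 2 lay farthest from them. The difference was −2.97 ± 0.84 (limma adjusted p = 0.64), or 7.83-fold more with Nissle, and lay between −3.48 and −2.32 with any 1 sample left out. Healthy samples lay between −8.36 and −6.03 and DNBS samples between −6.34 and −3.13.

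Enzymes and cytokines of acute inflammation were less separated. Ptgs2, the inducible cyclooxygenase, read −4.79, −6.39, −5.53 and −6.36 against −2.84, −4.46, −2.30 and −6.14, at −1.83 ± 0.91. Il6 read −4.60, −6.10, −6.53 and −6.14 against −0.59, −5.06, −3.29 and −6.98, so that the Nissle samples held both the highest and the lowest value. Its difference of −1.86 ± 1.28 was −0.73 without Nissle sample 1, and CEC sample 8 was a filled-in value. The 2 other Il6 assays, read in 3 CEC samples, gave −2.21 and −0.93, the widest disagreement among genes with several assays. Osm, an interleukin 6 relative linked to gut inflammation, was at −2.01 ± 1.10, undetected in CEC sample 6. The inducible nitric oxide synthase Nos2 was at −0.82 ± 0.72, the haem oxygenase Hmox1 at −0.48 ± 0.55 and the cytokine Tnf at −0.30 ± 0.78. Tnf was read at −2.78 and −7.77 in Nissle samples 1 and 4, farther apart than any CEC pair. All 9 acute mediators tested were lower with CEC, with a median of −0.71 (−1.003 without CEC sample 1, −0.40 without CEC sample 8). That list holds Spp1, given above, but not Il6 or Osm. Spp1 was its 1 gene with an unadjusted p under 0.05.

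P-selectin lets leukocytes roll along inflamed vessels. Its gene Selp read −4.28, −4.85, −6.32 and −6.55 with CEC against −1.83, −2.95, −4.27 and −4.14 with Nissle. The groups touched without overlapping, with CEC sample 1 next to Nissle sample 5. The difference was −2.20 ± 0.71 (limma adjusted p = 0.814), or 4.60-fold more with Nissle. The oxidised lipoprotein receptor Olr1, of endothelium and macrophages, was at −2.28 ± 0.83 with CEC sample 8 undetected. Selp was the only endothelial marker tested. Sele, a second selectin gene, was past the limit in CEC samples 6 and 8 and so too rarely detected to be tested. Its Ct was 27.95, 27.3, 30.1 and 29.5 with CEC against 25.8, 24.98, 26.8 and 25.7 with Nissle, where sample 1 was filled in. The part of vessel content was not tested.

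Chemokines that draw monocytes and T cells included some wide differences and many small ones. Ccl4 read −6.19, −5.88, −7.06 and −8.07 with CEC and −2.02, −4.59, −2.91 and −7.14 with Nissle. Nissle sample 7 lay among the CEC samples and the other Nissle samples above them, and the difference of −2.64 ± 1.09 was −3.63 without sample 7. Ccl3 was at −2.70 ± 1.52, with Nissle sample 7 again low at −7.78. Ccl2, the main monocyte attractant, was at −0.39 ± 0.72, with a filled-in value in Nissle sample 1. Ccr1, a receptor for Ccl3 on neutrophils and monocytes, was at −0.78 ± 0.37. Over the 11 monocyte chemokines 7 were lower with CEC, with a median of −0.17 that became 0.23 without CEC sample 1.

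Ccl24, eotaxin 2, which recruits eosinophils, had the lowest p of the panel. It read −8.53, −7.23, −6.05 and −6.64 with CEC and −5.54, −6.10, −4.68 and −4.94 with Nissle. CEC sample 6 and Nissle sample 4 nearly coincided, and the other samples did not cross. The difference was −1.80 ± 0.46, or 3.47-fold more with Nissle, and −1.32 without CEC sample 1. Healthy samples lay from −6.38 to −6.01 and DNBS samples from −6.94 to −6.10. The order of CEC samples was not that of S100a8: sample 1 was lowest here and sample 6 highest. Ccl11, eotaxin 1, was at −1.03 ± 0.59, and at −0.38 without Nissle sample 1. The eotaxin receptor Ccr3 was at −1.05 ± 0.95 with Nissle sample 1 undetected and left out of the fit. It was −0.13 with that sample counted at the limit and turned to 0.07 without Nissle sample 5. Ccr4 of type 2 T cells was at 0.96 ± 0.50 with a filled-in value in CEC sample 1. Of 11 eosinophil and type 2 genes 8 were lower (median −0.33; 0.04 without Nissle sample 1), and of 4 eosinophil and mast cell markers 2 were lower and 2 higher (median −0.40; 0.27 without Nissle sample 5).

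Interferon γ drives the chemokines Cxcl9, Cxcl10 and Cxcl11, which call in T cells. Cxcl10 read −4.44, −2.25, −5.04 and −5.74 with CEC and 1.13, −3.05, −2.90 and −4.39 with Nissle. Nissle sample 1 stood far above the rest, and the difference of −2.07 ± 0.93 was −0.92 without it. Cxcl9 was at −4.56, −0.58, −4.64 and −4.60 against −1.85, −1.84, −3.03 and −3.99, so CEC sample 2 was the highest of the 8 samples and the other 3 the lowest. Its difference was −0.92 ± 0.80, and −1.93 without CEC sample 2. Ifng itself was at −0.41 ± 0.94, undetected in CEC sample 1, and at −0.73 with that sample counted at the limit. It was at 0.15 without CEC sample 8, and farther above 0 without Nissle sample 1, its highest sample, at a Ct of 23.4. Their receptor Cxcr3 was at 0.65 ± 0.51. Over 9 tested genes of the axis 5 were lower, with a median of −0.005 that went from −0.24 to 0.29 when each sample in turn was dropped.

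The tumour necrosis factor family held differences on both sides. Tnfsf14, LIGHT, a ligand on activated T cells, read −8.55, −8.06, −7.49 and −8.37 with CEC against −6.85, −5.86 and −7.46 in Nissle samples 1, 5 and 7. It was not detected in Nissle sample 4, which the fit left out, and the difference was −1.39 ± 0.50. Counted at the limit, that sample lay below every CEC sample and the difference was −0.79. CEC sample 6 and Nissle sample 7 nearly touched. The costimulatory receptor Tnfrsf9 was at −1.38 ± 0.53 and its ligand Tnfsf9 at −0.85 ± 0.37, both lower with CEC with overlapping groups. Tnfrsf18, GITR, which regulatory T cells carry, lay the other way at −6.51, −5.78, −6.22 and −6.84 against −7.22, −6.96, −7.20 and −7.07. Those groups did not overlap, the difference was 0.77 ± 0.30, and Nissle sample 1 was filled in. Across 23 members 14 were higher with CEC, near the 63.1% of all tested genes, with a median of 0.10 that turned to −0.25 with Gapdh alone.

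Genes higher with CEC included some of lymphocytes and of fat. Cd180, a relative of the Toll-like receptors found on B cells, read −4.70, −4.57, −4.61 and −5.57 with CEC and −6.88, −5.34, −5.23 and −7.13 with Nissle. CEC sample 8 lay below Nissle samples 4 and 5 and the other CEC samples above all Nissle samples. The difference was 1.28 ± 0.46 (limma adjusted p = 0.961), or 2.43-fold more with CEC, and healthy samples lay at −5.48 to −4.66. Pla2g2d, a phospholipase of dendritic cells in lymphoid tissue, was at 1.26 ± 0.52 with CEC sample 1 undetected and left out of the fit. That sample read a Ct of 28.8 and was the lowest of the 8, and the difference was 0.25 with it counted at the limit and 0.057 with any Ct under 40. H2-Q10, a class I histocompatibility gene, was at 1.42 ± 0.63. Cd28, the costimulatory receptor of T cells, was at 1.18 ± 0.64. The 3 B cell markers were all higher (median 0.48; −0.08 without Nissle sample 4), as were 3 of 4 T cell markers (median 0.60; 0.26 without Nissle sample 4, 0.98 without CEC sample 1, 0.26 with Gapdh alone). Of all tested genes 63.1% were higher with CEC, so counts over so few markers set neither list apart. By contrast, 7 of 8 macrophage markers were lower (median −0.31), from Csf2rb at −0.71 ± 0.57 and Cd14 at −0.54 ± 0.47 to Cx3cr1 at 0.76 ± 0.47. The part of these cell types in the differences was not tested.

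Ccl20, which the follicle epithelium makes to draw in cells carrying CCR6, was at −3.74, −4.67, −4.59 and −5.77 with CEC and −4.82, −8.32, −5.19 and −5.90 with Nissle. Nissle sample 4 was far below the others, and the difference of 1.36 ± 0.71 was 0.61 without it. The same sample was the lowest of the 8 in the keratin gene Krt8, an epithelial marker, but not in Tlr5, the other epithelial marker tested. Tlr5 read −4.31, −3.41, −2.90 and −3.87 with Nissle and differed by −0.01 ± 0.42. Krt8 read between 3.12 and 4.72 with CEC and 3.61, 0.71, 4.14 and 4.07 with Nissle, and its difference of 0.75 ± 0.66 was −0.05 without sample 4. Several other genes rested on this sample: Bmp2, a growth factor of the upper crypt, was at 1.08 ± 0.59 and 0.54 without it, the constitutive cyclooxygenase Ptgs1 at 0.78 ± 0.73 and −0.03, the kinase Mapk8 at 0.58 ± 0.66 and −0.15, and the lipid carrier Apoe at 0.49 ± 0.47 and −0.04. The low Krt8 of Nissle sample 4 thus moved with them, and its part was not tested.

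Tgfb2, a growth factor of stroma and epithelium, was among the genes with CEC above Nissle without overlap. It read −4.46, −4.76, −3.43 and −4.18 with CEC and −4.87, −4.95, −5.02 and −5.14 with Nissle, a difference of 0.79 ± 0.40. Beside the 63.1% of all tested genes that were higher with CEC, 11 of 12 of the bone morphogenetic protein family were (median 0.37; 0.02 with Gapdh alone, 0.11 without CEC sample 6, 0.73 without CEC sample 2). All 7 MAP kinase genes were too (median 0.23, which turned to −0.11 with Gapdh alone). Of the interleukin 17 and 22 axis 6 of 7 tested genes were higher (median 0.26, −0.08 with Gapdh alone), but these are receptors, Il17d and Ccl20. The cytokines Il17a, Il17c, Il17f, Il22, Il23a and Il21 and the receptor Il23r were too rarely detected to be tested, and Il17a and Il17f, given with the detection differences, lay the other way. The adipokine Retn, resistin, read −4.57, −6.05, −3.63 and −3.73 against −6.81, −5.20, −4.89 and −6.66, at 1.39 ± 0.76, and all 4 adipocyte markers were higher with a median of 0.80 (0.45 with Gapdh alone). Clu, a secreted chaperone, was at −0.90 ± 0.75 with a filled-in value in Nissle sample 1. Pla2g4c was at −0.73 ± 0.54 with Nissle sample 4 undetected, and at −0.12 with it counted at the limit, so that the 4 phospholipases tested pointed both ways (median 0.31, −0.04 with Gapdh alone).

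**Figure D4:**
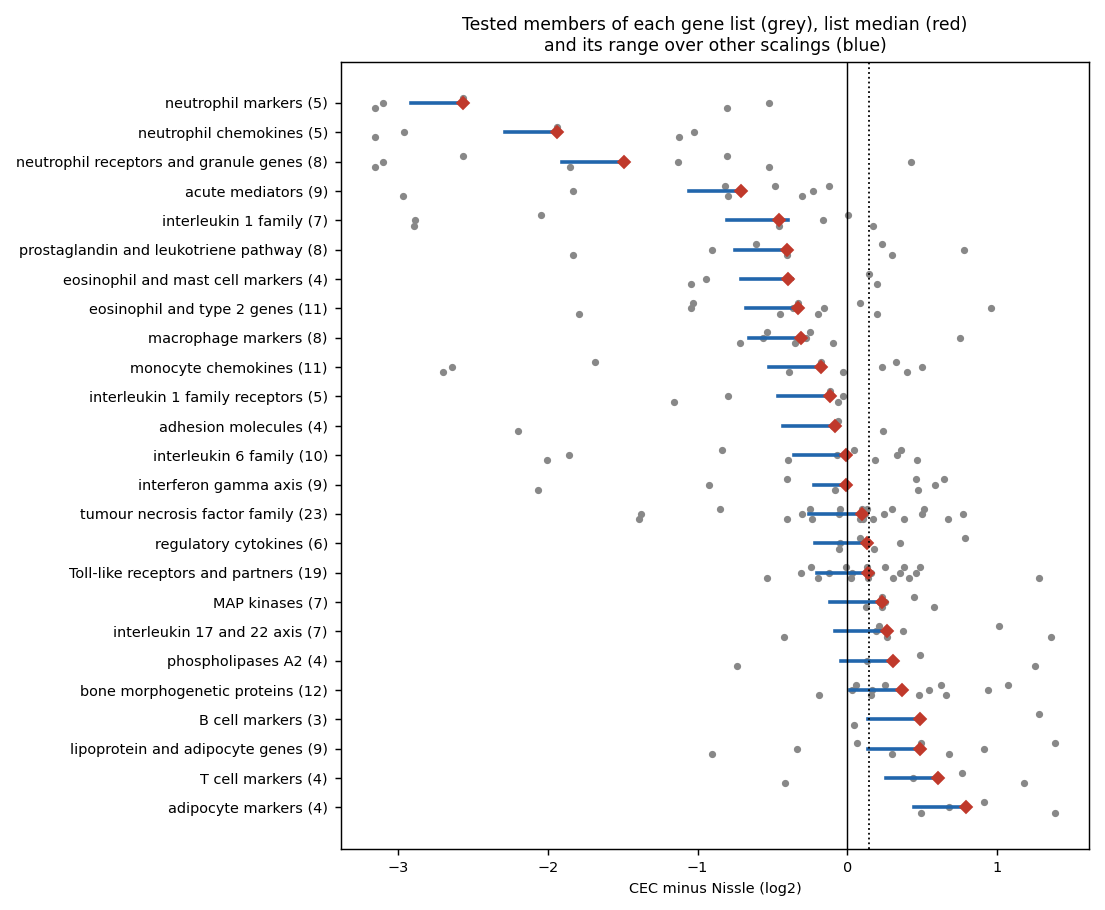
Difference between the groups (x axis, log2, CEC minus Nissle) for the tested members of the 25 gene lists with 3 or more of them (rows, number of tested members in brackets), with grey points for members, red diamonds for list medians and blue bars for the range of the median over other scalings. Of the lists drawn, the 3 neutrophil lists, which share genes, lie farthest left, with medians of −2.57, −1.94 and −1.49, and the adipocyte markers farthest right, at 0.80; the dotted line is the median of all genes, at 0.15.

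Apart from Tgfb2 and Cd180, members of these lists given above, regulators and sensors showed little. Tgfb1, the main suppressive cytokine of the gut, read −3.14, −4.34, −2.38 and −3.00 with CEC and −3.16, −4.14, −2.22 and −3.15 with Nissle. The samples interleaved, with a difference of −0.05 ± 0.43 and an interval from −0.97 to 0.87. In this main setting a 2-fold difference in either direction lay outside the interval. The difference moved by −0.25 without Ywhaz and Rplp2, and its sign turned with values of 4 or fewer decimals left out. The bound is thus given for the main setting only. Tlr4, the receptor for bacterial lipopolysaccharide, was at −0.31 ± 0.46, with an interval from −1.29 to 0.67. Of 19 Toll-like receptors and partners 13 were higher with CEC, near the 63.1% of all tested genes. Their median of 0.14 turned to −0.20 with Gapdh alone. Over 6 regulatory cytokines and receptors the median was 0.13, and −0.22 with Gapdh alone. Both medians lay near the 0.15 of all tested genes. The prostaglandin and leukotriene pathway had 5 of 8 genes lower (median −0.40, 0.01 without Nissle sample 5), the interleukin 6 family 5 of 10 (median −0.01), the adhesion molecules 3 of 4 (median −0.08, 0.32 without CEC sample 8) and the lipoprotein and adipocyte list 2 of 9 (median 0.49).

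Some genes were near the detection limit in 1 group only. A detection difference was counted where a gene was read in at least 3 samples of 1 group and at most 1 of the other. Of 584 genes 4 (0.685%) were read more often with Nissle and 6 (1.03%) more often with CEC. Fisher's exact test cannot go below p = 0.0286 with 4 samples per group, and Cxcl11 and Epo stood at that value. After adjustment over the 584 genes none passed (adjusted p = 1 for all 10). With such a floor the adjustment could hardly let a single gene pass, so this test cannot decide on any of them. For the folds given, undetected wells were set at the limit of 28 in both groups. For Camp, Cxcl11, Il17a, Epo and Il1f10, read in all 4 samples of the higher group, the folds are lower bounds. These hold only if the undetected wells did not fail. For Cebpb, Chrna7, Fgf23, Inha and Lep the higher group also held an undetected well, so their folds are not bounds.

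Il17a, the cytokine of type 17 T cells that raises neutrophil chemokines, showed the widest of these on the Nissle side. Its Ct was 29.5, 27.97, 31.5 and 29.1 with CEC and 23.97, 25.9, 25.4 and 26.01 with Nissle. It was thus read in 1 of 4 CEC samples, just inside the limit, and in 4 of 4 Nissle samples, at least 5.47-fold more (4.12 without Nissle sample 1, 7.03 without Nissle sample 7). CEC sample 1 held a filled-in value. When any Ct under 40 was accepted, Il17a had the lowest p of 511 genes, with a difference of −3.97 ± 0.80 and a limma adjusted p of 0.0772. It was read in 2 of 4 DNBS and 0 of 4 healthy samples. The related Il17f, read in 0 CEC and 2 Nissle samples, had Ct values of 31.03, 28.9, 29.5 and 30.3 against 24.4, 27.7, 28.02 and 28.2.

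The interferon chemokine Cxcl11 was read in 0 of 4 CEC and 4 of 4 Nissle samples. Its Ct was 28.6, 28.2, 30.0 and 28.1 against 24.2, 26.05, 26.8 and 27.2, with CEC samples 2 and 8 just past the limit and Nissle sample 4 filled in. It was at least 3.29-fold more with Nissle (2.18 without Nissle sample 1), and at −2.45 ± 0.61 with any Ct under 40 (limma adjusted p = 0.236). Healthy mucosa had it in 3 of 4 samples and DNBS mucosa in 0. Camp, the cathelicidin stored in neutrophil granules, had Ct values of 23.8, 28.6, 30.5 and 30.0 against 23.5, 25.6, 26.8 and 25.1. CEC sample 1 was as rich in it as Nissle sample 1, as in S100a8, whereas CEC sample 2 was past the limit. The bound was 2.76-fold (5.65 without CEC sample 1, 1.88 without Nissle sample 1). Fgf23, a phosphate hormone, was read in 1 against 3 samples, 1.72-fold more with Nissle when undetected wells were set at the limit.

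Epo, erythropoietin, was the widest in the other direction. Its Ct was 23.1, 27.3, 24.3 and 24.9 with CEC and 40 in all 4 Nissle samples, which means no amplification. At least 10.1-fold more was read with CEC (6.74 without CEC sample 1, 17.9 without CEC sample 2). Of the healthy samples 2 were read and 2 stood at 40, so the assay also gave no signal outside the Nissle group. Il1f10, an interleukin 1 relative, had Ct values of 24.3, 24.8, 26.3 and 25.2 with CEC, with sample 8 filled in, and 40, 40, 23.5 and 40 with Nissle. The only Nissle sample that amplified was richer in it than any CEC sample. The bound was 3.84-fold, and 9.85-fold without Nissle sample 5. Both genes had wells that were either clear or empty, with nothing between 27.3 and 40 among the 8 samples, and failed wells cannot be told apart from little RNA there.

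The remaining differences in detection were narrow or uneven. Cebpb, a transcription factor of myeloid cells, read 31.0, 24.1, 26.7 and 24.8 with CEC, with sample 6 filled in, and 40, 29.4, 40 and 25.5 with Nissle. With undetected wells at the limit it was 3.29-fold more with CEC. Lep, leptin, was read in 3 CEC and 0 Nissle samples, at 27.6, 30.3, 26.6 and 25.9 against 28.8, 28.8, 29.1 and 28.6 (2.30-fold with undetected wells at the limit), where CEC sample 1 and Nissle samples 1 and 4 were filled in. The acetylcholine receptor subunit Chrna7 and the inhibin subunit Inha were each read in 3 CEC and 1 Nissle samples, with folds of 1.47 and 1.45 on the same footing. Among the CEC samples counted as read, sample 2 of Chrna7 and sample 6 of Inha were filled-in values. Nissle sample 4 of Chrna7 and Nissle sample 1 of Inha were filled in too. Lep, Chrna7 and Inha had Ct values between 25.9 and 30.3 in the 8 samples. With any Ct under 40 accepted, they differed by 1.46 ± 0.76, 1.32 ± 0.80 and 0.42 ± 0.70, with limma adjusted p = 0.961 for all 3.

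**Figure D5:**
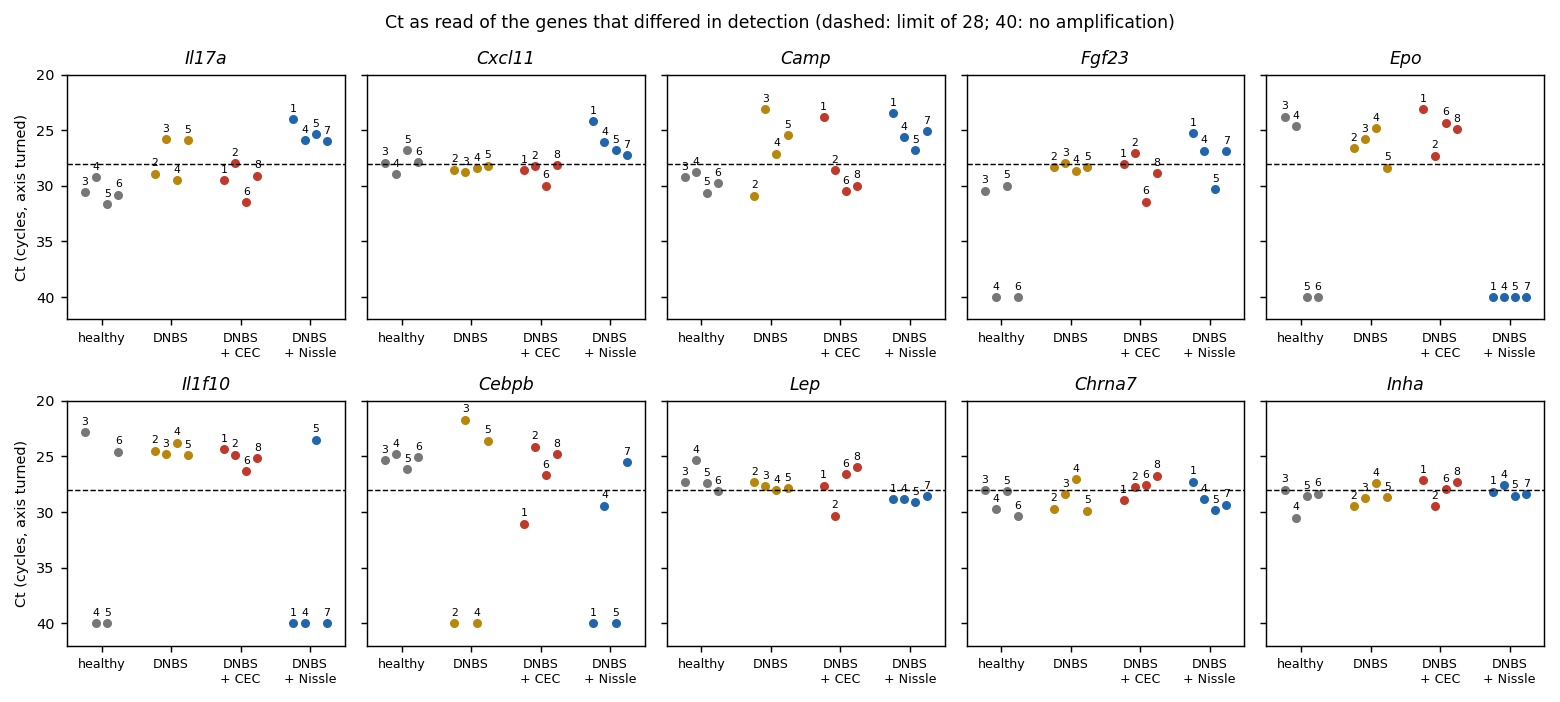
Ct as read (y axis, turned so that more RNA is up) of the 10 genes that differed in detection, 1 point per sample with its sample number, in the 4 groups. The dashed line is the limit of 28 and 40 stands for no amplification; Epo and Il1f10 have Nissle wells at 40, whereas the CEC wells of Il17a and Cxcl11 lie at or just past the limit of 28, up to 31.5.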

How the data were processed

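Per the labels' protocols, RNA was isolated with the mirVana kit and read on TaqMan OpenArray panels. The authors deposited raw Ct values with no normalization, a unit other than counts or intensities. Thresholding is not given in the sources used here. Among the 8 samples, 111 of 5184 values matched their group's mean without the sample itself (tolerance 2e-06) and were taken as filled in. The digit pair 40 was lost from many values and names (Cd40 is listed as Cd), so that 273 values had 4 or fewer decimals. Both kinds stayed in the main analysis and were dropped in an alternative each. No column of per-sample values was left unused (0). Of 584 gene names, 564 were symbols and 16 synonyms in RefSeq's table.

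Levels were the mean reference Ct minus the gene's Ct. A gene's assays were averaged over those with the most detected samples. Some reference genes are not reported here by name. Differences were fitted with limma 3.58.1 (R 4.3.3; lmFit, eBayes) over all 16 samples, undetected values missing (12 residual degrees of freedom), with p-values adjusted by Benjamini-Hochberg over 471 genes. The code was tested on simulated data. Named genes were the 25 with the lowest p, fixed key genes, all detection differences, and the extreme members of each list, of which 16 under 0.5 log2 units were left unnamed; any other gene was named after its values were seen. The groups, genes and lists were chosen with earlier results of these data known. Alternatives changed the reference, normalization, detection limit, handling of undetected, filled-in and short values, assays, samples in the fit and prior, and left out each sample.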

Additional observations from a re-analysis of the deposited data

Results flagged for a closer look

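The scan took in only part of the named genes, in 78 combinations of a gene and 1 of the 2 groups. In 2 of these combinations a sample's gap to its nearest neighbour took up most of the group's range. Chance sets apart about 1 in 20 groups of this kind. CEC sample 8 stood below the others in Cd180, at −5.57 with the next sample at −4.70. CEC sample 2 stood above the others in Cxcl9, at −0.58 with the next sample at −4.56. Krt8 and Mapk8 were among the named genes outside this scan. In both, Nissle sample 4 lay far below the other Nissle samples, and its gap also took up most of the group's range. Without that sample the difference went from 0.75 to −0.054 in Krt8 and from 0.58 to −0.15 in Mapk8.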

How the results depend on the processing

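No gene passed at an adjusted p under 0.05 in any of the 24 alternatives, where the lowest adjusted p lay between 0.0772 (any Ct under 40) and 0.977 (without Nissle sample 1). No paired analysis was possible because the 2 groups share only 1 sample number. The 21 genes with an unadjusted p under 0.05 became 33 with Gapdh alone, 8 with a detection limit of 26, and 12 (without CEC sample 6 or Nissle sample 1) to 36 (without Nissle sample 7) with 1 sample left out. The 114 genes bounded within 1 log2 unit became 45 when only the 8 samples were fitted, which leaves fewer samples to estimate the spread, and 53 to 96 with 1 sample left out. The 10 detection differences became 3 with any Ct under 40, 21 with a limit of 26, and 13 to 18 with 1 sample left out. The difference in mean reference Ct, 0.234, was −0.016 without Ywhaz and Rplp2. Where no cause is named, the cause was not tested.

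Of 62 named tested genes, 11 changed sign in some alternative. Without short decimals Il1rn was at 0.11 and Tgfb1 at 0.33. With 1 sample left out, Il1rn ranged from −0.37 to 0.11, Tnf from −1.24 to 0.42, Ccl2 from −0.99 to 0.28, Ifng from −1.14 to 0.45, Tgfb1 from −0.37 to 0.33, Tlr4 from −0.82 to 0.0033, Apoe from −0.040 to 0.73, Ptgs1 from −0.029 to 1.33, Mapk8 from −0.15 to 0.98, Ccr3 from −1.82 to 0.072 and Krt8 from −0.054 to 1.09. Template number per well is unknown, and genes near the limit of 28 have the least certain levels.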
